A study of Homo sapiens with 12 samples.

Results

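The genes described here encode 10 surface molecules through which myeloma cells hold on to marrow stroma, matrix and other blood cells. They are the integrin subunits ITGA4, ITGAL, ITGAE, ITGB1 and ITGB2, the intercellular adhesion molecules ICAM1, ICAM2 and ICAM3, the hyaluronan receptor CD44 and the selectin ligand SELPLG. They were picked by gene symbol from the deposited transcript tables, where they held 26 of 51780 transcript rows and made up 10 of 25680 symbols. The counts of all rows of a symbol were summed. All 10 genes passed the filter on low counts, as did 16782 genes in all.

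Integrins are pairs of an alpha and a beta subunit that bind matrix or surface proteins of other cells, and that signals inside the cell switch between a resting and a binding state. ITGA4 pairs with ITGB1 or with ITGB7 to bind fibronectin and VCAM1, ITGAL pairs with ITGB2 to form LFA-1, which binds the ICAM proteins, and ITGAE pairs with ITGB7 to bind E-cadherin. In the marrow, contact through these molecules and through CD44 is known to anchor myeloma cells and to raise their drug resistance.

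RNA was sequenced from MM.1S and U266, 2 human lines of the plasma cell cancer multiple myeloma, 6 h after addition of 6 µM IT848 or of the solvent DMSO. IT848 is an inhibitor of NF-kB, per the labels. The 4 groups were MM.1S with IT848, MM.1S with DMSO, U266 with IT848 and U266 with DMSO, with 3 libraries each and 12 in all. Both lines were kept in RPMI with bovine serum, and the labels name no stromal or other partner cells in the cultures. Nothing in the labels says that replicate libraries are separate cultures, so p-values here measure only the spread between these libraries, which may be technical.

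Total transcript counts were 50627690 to 72039748 per library, and 22887470 to 32913398 with 1 transcript per gene. All 8 plasma cell markers examined were at 1 CPM (counts scaled to a common library total of 1000000) or above in every group, whereas none of 7 T and NK cell markers and none of 4 platelet markers reached 1 CPM in any group. Of 7 myeloid markers, CSF1R (3.38 CPM with IT848 and 2.65 CPM with DMSO) and ITGAM (1.94 CPM with IT848 and 1.46 CPM with DMSO) did so in U266 and none in MM.1S. Of 5 endothelial markers PECAM1 alone did, at 1.48 CPM with IT848 and 1.14 CPM with DMSO in MM.1S and at 7.61 CPM with IT848 and 9.34 CPM with DMSO in U266. A pair of libraries stood apart. U266 IT848 replicate 1 held all 15 genes that mark MM.1S, at 0.922% of their MM.1S level, against 0.0942% and 0.0833% in the other IT848 libraries of U266. MM.1S DMSO replicate 2 held all 40 genes that mark U266, at 0.406% of their U266 level, against 0.0447% and 0.0728% in the other DMSO libraries of MM.1S. Stromal markers, mainly collagen genes, summed to 23.4 to 29.6 CPM with IT848 against 15.9 to 20.4 CPM with DMSO in MM.1S, and to 35.5 to 43.6 CPM with IT848 against 28.1 to 32.9 CPM with DMSO in U266. The part of stromal markers in the results was not tested, and results that change without the pair of libraries are given with and without them.

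The ICAM1 promoter is shown because ICAM1 is a textbook NF-kB target and the labelled target of IT848 is NF-kB. The RefSeq promoter table (GRCh38.p14) held 9 windows of 6 of the 10 genes. Each window was searched on both strands for the kappaB-type motif GGAAATTCC and the STAT-type motif TTCCNGGAA. The kappaB-type motif was in 1 of the 9 windows and in 0.413% of all 35116 windows, and the STAT-type motif was in 1 of the 9 and in 0.968% of all. Both matches were in ICAM1, where the kappaB-type match lay 186 to 178 bases and the STAT-type match 75 to 67 bases before the start, without overlap. The 250 bases before the ICAM1 start, at chr19:10270870-10271119 on the plus strand, are shown with both matches in capitals. The 250 bases before the ITGA4 start, at chr2:181457136-181457385 on the plus strand, are shown for contrast, because ITGA4 fell with IT848 in both lines and ICAM1 in neither, and they held neither motif. A match of letters is a description and not evidence of binding. Only these letters were searched, so other forms of either site, in ITGA4 or elsewhere, were not counted. ICAM1 was picked as a known target, so its matches are no result about the 10 genes. A link between either motif and the response to IT848 was not tested.
ICAM1: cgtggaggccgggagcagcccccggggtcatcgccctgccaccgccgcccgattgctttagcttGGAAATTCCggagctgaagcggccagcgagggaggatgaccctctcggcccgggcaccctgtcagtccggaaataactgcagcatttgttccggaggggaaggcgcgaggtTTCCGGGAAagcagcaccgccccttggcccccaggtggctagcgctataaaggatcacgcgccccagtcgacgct
ITGA4: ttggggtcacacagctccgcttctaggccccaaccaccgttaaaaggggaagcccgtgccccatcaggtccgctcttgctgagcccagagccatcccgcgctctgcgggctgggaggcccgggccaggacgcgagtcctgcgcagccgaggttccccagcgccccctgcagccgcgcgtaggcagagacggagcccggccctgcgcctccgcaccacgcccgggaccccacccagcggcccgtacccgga

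Levels are given as CPM after TMM scaling, the scale of the test, with 3 libraries per group. Because a read was counted for every transcript row it overlapped, these sums set the groups of 1 gene side by side but not different genes. A difference was called where the edgeR quasi-likelihood test gave a Benjamini-Hochberg adjusted p below 0.05 over all 16782 genes. With IT848 in MM.1S, 2 of the 10 genes rose (ITGB1 and ICAM3) and 3 fell (ITGA4, ITGAL and ICAM2). Over all genes tested, 38.3% were called in that comparison, 18.7% as rises and 19.6% as falls, so that 5 of 10 was near the background. With IT848 in U266, none of the 10 rose and 3 fell (ITGA4, ICAM2 and SELPLG), where 9.01% of all genes were called, 4.03% as rises and 4.98% as falls. The median log2 fold change of the 10 genes was 0.02 in MM.1S and -0.06 in U266, beside -0.01 in MM.1S and 0.01 in U266 over all genes tested.

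**Figure D1:**
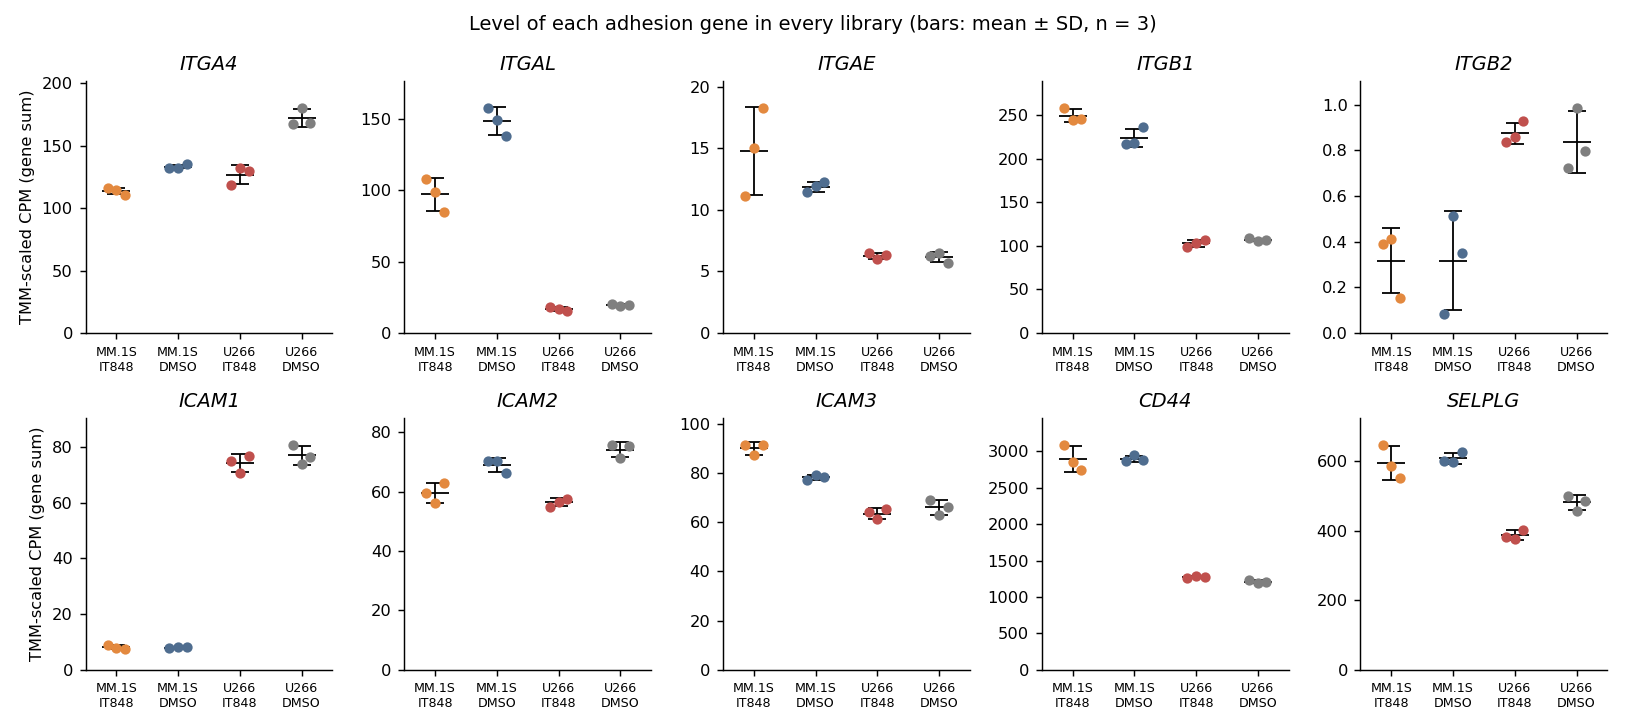
TMM-scaled CPM (linear axis from 0) of each of the 10 genes in each of the 12 libraries, with the mean and SD of 3 libraries per group. The 3 IT848 libraries lie below the 3 DMSO libraries of the same line for ITGA4, ITGAL and ICAM2 in both lines. CD44, ICAM1 and ITGAL are among the genes whose levels separate the lines.

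ITGA4 encodes the alpha subunit of VLA-4, a main receptor of myeloma cells for fibronectin and VCAM1. It had 116, 114 and 111 CPM in MM.1S with IT848, against 132, 132 and 135 CPM in MM.1S with DMSO. U266 had 119, 132 and 130 CPM with IT848, against 167, 180 and 168 CPM with DMSO. In both lines every IT848 library lay below every DMSO library. The log2 fold change was -0.23 ± 0.05 in MM.1S (SE, adjusted p = 0.00149) and -0.44 ± 0.05 in U266 (adjusted p = 2.5e-05). The value in MM.1S was -0.14 once the trend of counts on transcript length was taken out, and was still called. That trend moved with treatment in MM.1S: over 9131 genes, Spearman's rho between transcript length and each library's shift from the mean profile of its line was 0.0348, -0.343 and -0.486 with IT848, against 0.450, 0.361 and 0.167 with DMSO. In U266 it was -0.255, 0.128 and -0.231 with IT848, against -0.0117, 0.205 and 0.158 with DMSO. In bulk RNA, fewer cells with a transcript and less of it per cell cannot be told apart.

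ITGAL encodes the alpha subunit of LFA-1, the leukocyte receptor for ICAM proteins. It had 108, 98.8 and 84.9 CPM in MM.1S with IT848, against 158, 150 and 138 CPM in MM.1S with DMSO. U266 had 18.1, 17.1 and 15.7 CPM with IT848, against 20.5, 18.7 and 19.4 CPM with DMSO. IT848 and DMSO libraries did not overlap in either line. The fall was called in MM.1S, with a log2 fold change of -0.61 ± 0.08 (adjusted p = 3.7e-05), and was the widest of the 10 genes in either line. In U266 the log2 fold change was -0.21 ± 0.09 and was not called (adjusted p = 0.193).

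ITGAE encodes the alpha subunit that, with ITGB7, binds E-cadherin. It had 11.1, 14.98 and 18.3 CPM in MM.1S with IT848, against 11.4, 11.97 and 12.2 CPM in MM.1S with DMSO. The IT848 libraries spread widely and overlapped the DMSO libraries, and the log2 fold change of 0.32 ± 0.13 was not called (adjusted p = 0.0683). Without IT848 replicate 1 it was 0.50 and called (adjusted p = 5.0e-04). In U266 it had 6.52, 6.03 and 6.29 CPM with IT848, against 6.29, 6.48 and 5.70 CPM with DMSO, and the log2 fold change was 0.03 ± 0.14 (adjusted p = 0.945). ITGAE overlaps the haspin gene GSG2 on the opposite strand, and without a stated strand setting their reads cannot be told apart. GSG2 averaged 12.04 CPM with IT848 against 15.2 CPM with DMSO in MM.1S, the opposite direction to ITGAE.

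ITGB1 encodes the beta subunit that ITGA4 and many other alpha subunits share. It had 258, 244 and 246 CPM in MM.1S with IT848, against 217, 218 and 236 CPM in MM.1S with DMSO. The groups did not overlap, and the rise was 0.16 ± 0.04 on the log2 scale (adjusted p = 0.0119). It was no longer called without DMSO replicate 1 (0.14, adjusted p = 0.0559) or without DMSO replicate 2 (0.14, adjusted p = 0.0553). U266 libraries had 98.5, 103 and 107 CPM with IT848, against 108, 106 and 107 CPM with DMSO, which overlapped (-0.06 ± 0.04, adjusted p = 0.529).

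ITGB2 encodes the beta subunit that LFA-1 needs, and it was almost unread. Its most counted row had 11, 12 and 4 reads in MM.1S with IT848, against 3, 13 and 10 reads in MM.1S with DMSO. In U266 it had 25, 25 and 34 reads with IT848, against 20, 30 and 25 reads with DMSO. The IT848 and DMSO counts overlapped in both lines, and the 95% interval of the log2 fold change ran over -0.95 to 1.13 in MM.1S and over -0.74 to 0.87 in U266. A change within those intervals was not detectable at this depth. Reads had no molecular identifiers, so these intervals take no account of amplification. ITGB2 overlaps its antisense gene ITGB2-AS1, which was listed at 0 in MM.1S and averaged 0.507 CPM with IT848 against 0.407 CPM with DMSO in U266.

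ICAM1 is the LFA-1 ligand that inflammatory signals induce in many cell types. It had 8.89, 7.89 and 7.59 CPM in MM.1S with IT848, against 7.62, 7.99 and 8.15 CPM in MM.1S with DMSO. U266 had 75.0, 70.7 and 76.9 CPM with IT848, against 80.7, 74.0 and 76.3 CPM with DMSO. IT848 and DMSO libraries overlapped in both lines. The log2 fold change was 0.04 in MM.1S with a 95% interval of -0.11 to 0.19 (adjusted p = 0.702), and -0.05 in U266 with a 95% interval of -0.17 to 0.07 (adjusted p = 0.664).

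ICAM2 is a further LFA-1 ligand, known from endothelium and leukocytes. It had 59.7, 56.2 and 62.9 CPM in MM.1S with IT848, against 70.3, 70.2 and 66.4 CPM in MM.1S with DMSO. Levels in U266 were 54.9, 56.6 and 57.6 CPM with IT848, against 75.8, 71.3 and 75.4 CPM with DMSO. The IT848 libraries lay below the DMSO libraries in both lines, with a log2 fold change of -0.21 ± 0.05 in MM.1S (adjusted p = 0.00412) and -0.39 ± 0.05 in U266 (adjusted p = 1.1e-04). With the length trend taken out the MM.1S value was -0.33. ICAM2 overlaps PRR29 on the opposite strand. PRR29 averaged 35.6 CPM with IT848 against 40.2 CPM with DMSO in MM.1S, and 40.1 CPM with IT848 against 52.1 CPM with DMSO in U266, and its reads cannot be told apart from those of ICAM2 without the strand setting.

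ICAM3 is the LFA-1 ligand of resting leukocytes. It had 91.4, 87.1 and 91.5 CPM in MM.1S with IT848, against 77.2, 79.3 and 78.4 CPM in MM.1S with DMSO. The groups did not overlap, and the log2 fold change was 0.20 ± 0.05 (adjusted p = 0.00297), or 0.13 with the length trend taken out. Levels in U266 were 63.9, 61.1 and 65.4 CPM with IT848, against 69.1, 63.1 and 66.1 CPM with DMSO, which overlapped (-0.06 ± 0.05, adjusted p = 0.538). Among the 3 ICAM genes, MM.1S thus had 1 rise, 1 fall and 1 gene without a call.

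SELPLG encodes PSGL-1, the glycoprotein that selectins bind once it carries the right sugars and sulfates. It had 647, 584 and 552 CPM in MM.1S with IT848, against 600, 598 and 625 CPM in MM.1S with DMSO. The IT848 libraries lay on both sides of the DMSO libraries (-0.03 ± 0.05, adjusted p = 0.689). In U266 it had 382, 376 and 403 CPM with IT848, against 501, 458 and 485 CPM with DMSO, with no overlap and a log2 fold change of -0.31 ± 0.05 (adjusted p = 0.00168).

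**Figure D2:**
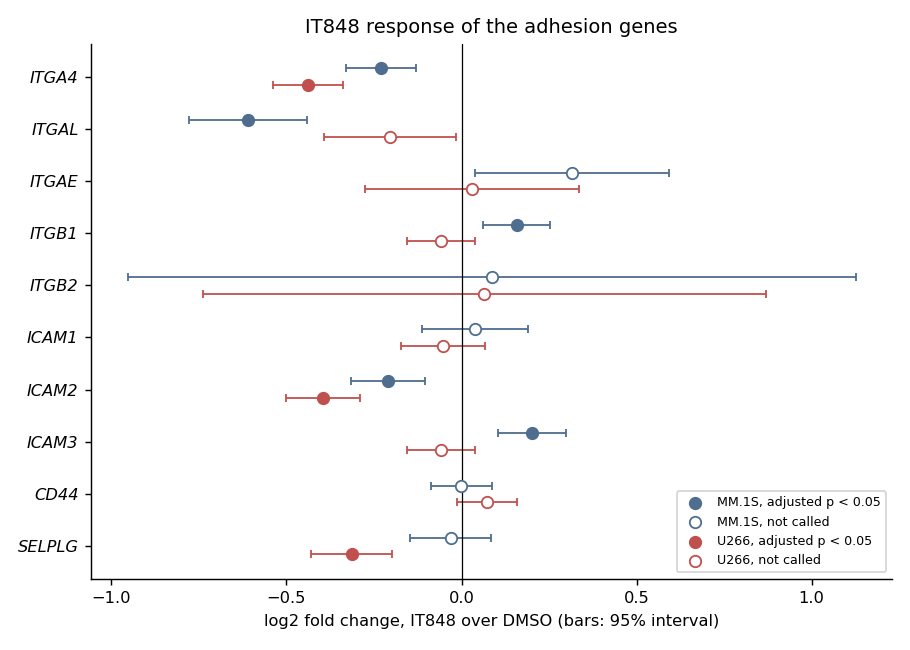
Log2 fold change of IT848 over DMSO (x axis) for the 10 genes in each line, with 95% intervals from the edgeR fit and filled points at an adjusted p below 0.05. ITGA4 and ICAM2 are filled and below 0 in both lines, while the intervals of ICAM1 and CD44 include 0 in both.

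The difference between the responses, MM.1S minus U266, was tested in the same fit. It was called for 5 of the 10 genes, 4 above 0 and 1 below, where 17.4% of all genes were called, 8.49% above 0 and 8.94% below. Its median over the 10 genes was 0.20, beside -0.02 over all genes tested. ITGA4 differed by 0.21 ± 0.07 (adjusted p = 0.0429), so that its fall was smaller in MM.1S. SELPLG differed by 0.28 ± 0.08 (adjusted p = 0.0203). ICAM3 differed by 0.26 ± 0.06 (adjusted p = 0.0128) and ITGB1 by 0.22 ± 0.06 (adjusted p = 0.0299), both higher in MM.1S relative to U266. ITGAL differed by -0.41 ± 0.12 (adjusted p = 0.0293), its fall being wider in MM.1S. With U266 IT848 replicate 1 and MM.1S DMSO replicate 2 both left out, 1 of the 5 calls was left, that of ICAM3 (0.28, adjusted p = 0.0439). The count was also 1 without MM.1S DMSO replicate 2, 2 without U266 IT848 replicate 1 or MM.1S DMSO replicate 1, and 3 without U266 DMSO replicate 2 or U266 DMSO replicate 3. The other 5 genes were not called, and ICAM2 came nearest (0.19 ± 0.07, adjusted p = 0.0832).

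Between the untreated lines, MM.1S was higher than U266 for 6 of the 10 genes and lower for 3, where 82.6% of all genes were called, 40.6% higher and 42.1% lower in MM.1S, so that 9 of 10 was near the background. All 10 genes had CPM values that did not overlap between the DMSO libraries of both lines. The share of all genes without overlap was not computed, so this count is no result about the 10 genes. The median log2 difference was 0.29 over the 10 genes and -0.02 over all genes tested. ITGAL was 7.60-fold higher in MM.1S (log2 2.93 ± 0.09, adjusted p = 2.2e-13), and ICAM1, a ligand of the receptor that ITGAL helps to form, was in MM.1S at 0.103 of its U266 level (log2 -3.28 ± 0.07, adjusted p = 2.5e-15). CD44 was 2.39-fold higher in MM.1S (log2 1.26 ± 0.04) and ITGB1 2.09-fold higher (log2 1.06 ± 0.05). ITGAE (0.95 ± 0.14), SELPLG (0.34 ± 0.05) and ICAM3 (0.24 ± 0.05) were higher in MM.1S by smaller log2 differences. ITGA4 was lower in MM.1S, with a log2 difference of -0.37 ± 0.05, or -0.59 with the length trend taken out. ITGB2 was lower too, at -1.47 ± 0.43 (adjusted p = 0.00576), which rests on few reads. Without 1 library it ran over -1.99 to -0.96, with -0.96 reached without MM.1S DMSO replicate 1. ICAM2 was not called (-0.11 ± 0.05, adjusted p = 0.0601) but was under 8 of 20 other settings.

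To compare genes with each other, counts of the most counted transcript were divided by its length and scaled to a common library total (TPM). TPM is scaled to the library total, and on it the median of all tested genes moved by -0.14 log2 with IT848 in MM.1S, by 0.00 in U266 and by 0.27 between the untreated lines, so TPM is used here within libraries. In untreated MM.1S the order was SELPLG (569 ± 5.10 TPM, SD), CD44 (346 ± 11.7), ICAM3 (211 ± 5.21), ITGA4 (105 ± 1.71), ITGB1 (92.5 ± 2.08), ITGAL (68.6 ± 6.25), ICAM2 (49.8 ± 2.92), ITGAE (14.8 ± 0.234), ICAM1 (11.7 ± 0.192) and ITGB2 (0.260 ± 0.179). No neighbours in that order overlapped between libraries. In untreated U266 the order was SELPLG (371 ± 16.8 TPM), ICAM3 (147 ± 6.64), CD44 (117 ± 1.98), ITGA4 (112 ± 4.56), ICAM1 (93.8 ± 4.02), ICAM2 (44.1 ± 1.58), ITGB1 (36.5 ± 0.418), ITGAL (7.44 ± 0.326), ITGAE (6.30 ± 0.390) and ITGB2 (0.567 ± 0.0907). There CD44 and ITGA4 overlapped and the other neighbours did not. The CD44 row used, of 5732 bases, holds 1143 bases of variable exons (described below) that were sparsely read in U266. This lowers its TPM, so the place of CD44 beside ICAM3 and ITGA4 in U266 depends on the row chosen. With IT848, ITGB1 was at 94.5 ± 8.07 TPM and ITGA4 at 82.2 ± 6.72 TPM in MM.1S, and their libraries overlapped.

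**Figure D3:**
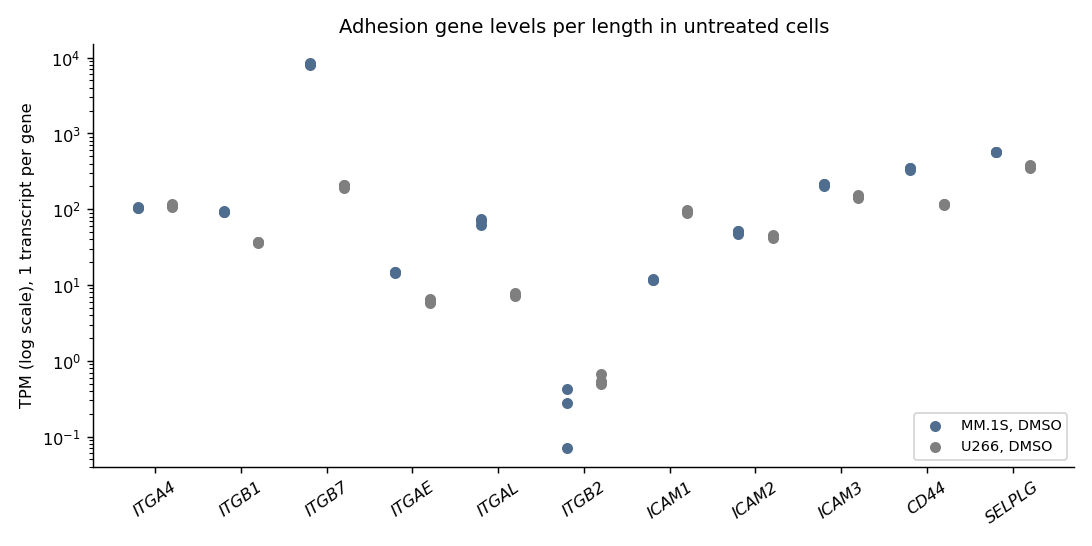
TPM on a log axis for the 10 genes and ITGB7 in the 3 DMSO libraries of each line, with ITGB7 shown as the other partner of ITGA4 and ITGAE. SELPLG is the highest of the 10 genes in both lines and ITGB2 the lowest.

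Subunit ratios within a library show how much RNA each partner had. ITGA4 over ITGB1 in TPM was 0.870 ± 0.0212 in MM.1S with IT848, against 1.14 ± 0.0411 in MM.1S with DMSO. In U266 the ratio was 2.35 ± 0.0797 with IT848, against 3.07 ± 0.161 with DMSO. It was lower with IT848 in both lines, without overlap. The rows of ITGA4 and ITGB1 differ in length (6076 and 3870 bases). The length trend, which moved with treatment in MM.1S, was not taken out of this ratio. ITGB7, a partner of both ITGA4 and ITGAE, was at 8238 ± 269 TPM in untreated MM.1S and 203 ± 10.1 TPM in untreated U266. ITGA4 over ITGB7 was therefore 0.0128 in untreated MM.1S and 0.552 in untreated U266, and ITGAE over ITGB7 was 0.00179 in MM.1S and 0.0311 in U266. ITGB7 was not called with IT848 in either line (MM.1S -0.14, adjusted p = 0.142, and U266 -0.04, adjusted p = 0.840). ITGAL over ITGB2 ran over 163 to 1045 in untreated MM.1S, where ITGB2 had few reads, and was 13.4 ± 2.61 in untreated U266. These are ratios of RNA and not of protein.

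CD44 is spliced with a block of variable exons, which lengthen the outer part of the receptor and are known from carcinoma and myeloma isoforms. Its gene sum was 3092, 2859 and 2742 CPM in MM.1S with IT848, against 2873, 2946 and 2876 CPM in MM.1S with DMSO. In U266 it was 1258, 1295 and 1270 CPM with IT848, against 1236, 1191 and 1207 CPM with DMSO. MM.1S libraries of both treatments overlapped, and the log2 fold change was -0.00 ± 0.04 in MM.1S (adjusted p = 1). In U266 the IT848 libraries lay above the DMSO libraries, by 0.07 ± 0.04 on the log2 scale, which was not called (adjusted p = 0.341).

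The 8 deposited CD44 rows let the variable exons be read apart from the standard form. The row of 5732 bases holds 9 variable exons, v2 to v10, of 1143 bases together, that the standard row of 4589 bases lacks. Counts in the long row beyond the standard row made up 4.80 ± 0.486% of the long row in MM.1S with IT848, against 4.89 ± 0.322% in MM.1S with DMSO. The share was 2.06 ± 0.144% in U266 with IT848, against 2.01 ± 0.226% in U266 with DMSO. IT848 and DMSO libraries overlapped in both lines (exact permutation test, two-sided, p = 0.9 in MM.1S and 0.7 in U266). The untreated lines did not overlap, with 4.64 to 5.26% in MM.1S and 1.75 to 2.17% in U266, a difference of 2.89 percentage points. For that comparison p was 0.1, the smallest that 3 against 3 allows, or 0.3 adjusted over the 3 comparisons. Reads that reach into a shared exon count for both rows, which lowers each share. Reads of unspliced RNA over these exons were not told apart and would raise it, so no share is a limit in either direction.

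Per base, variable exons of untreated MM.1S were read at 20.7 ± 1.43% of the density of the standard row, and those of untreated U266 at 8.22 ± 0.942%. Exons v8 and v9 stood at 31.1 ± 2.26% in MM.1S and 12.6 ± 1.64% in U266, v10 at 27.0 ± 1.23% in MM.1S and 14.6 ± 2.41% in U266, v3 to v7 at 17.2 ± 1.504% in MM.1S and 5.88 ± 0.521% in U266, and v2 at 11.4 ± 2.91% in MM.1S and 2.77 ± 0.621% in U266. Exons v8 to v10 were thus read more densely than v2 to v7 in both lines. A read that spans 2 blocks was counted for the later block only, so densities of different blocks are not fully comparable. Exon v10 had the highest mean density in untreated U266, where its libraries overlapped those of v8 and v9. It is the longest of the 9, lies at chr11:35211246-35211449 on the plus strand (GRCh38, GENCODE transcript) and has 204 bases.
CD44 exon v10: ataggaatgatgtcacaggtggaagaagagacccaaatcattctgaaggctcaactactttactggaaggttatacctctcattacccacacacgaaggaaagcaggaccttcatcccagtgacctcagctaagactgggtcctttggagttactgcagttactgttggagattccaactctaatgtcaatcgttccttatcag

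**Figure D4:**
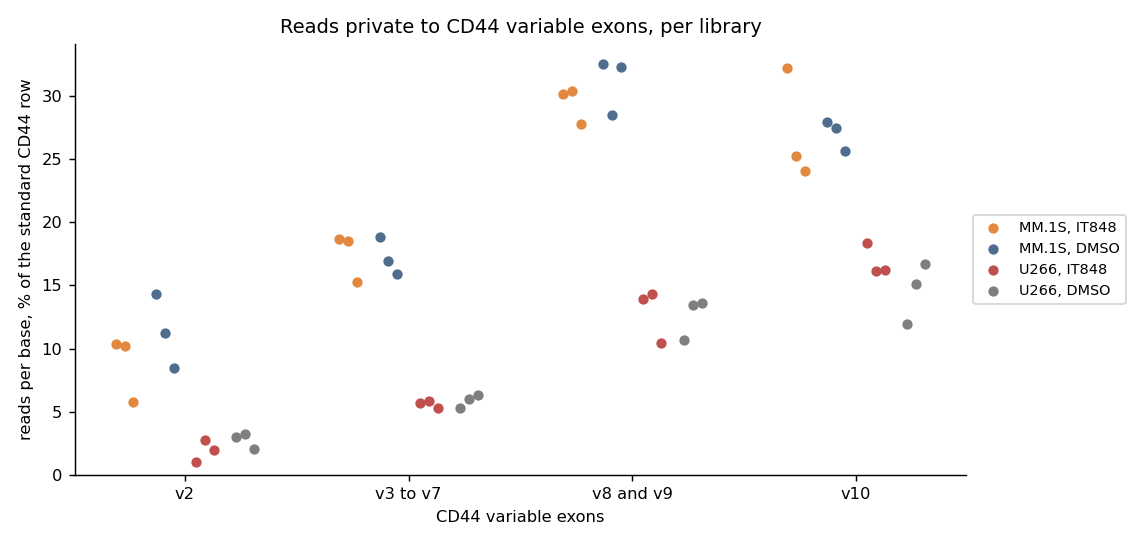
Reads beyond the standard CD44 row, by block of variable exons, per base and as a percentage of the density of the standard row, in each library (y axis from 0). In every block all 6 MM.1S libraries lie above all 6 U266 libraries, and the IT848 and DMSO libraries of a line overlap.

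ESRP1 is a splicing factor known to favour CD44 variable exons in epithelial cells. It had 19.5 ± 0.654 CPM in untreated MM.1S and 67.9 ± 4.76 CPM in untreated U266. With IT848 in U266 it was at 93.5 ± 3.28 CPM, against 67.9 ± 4.76 CPM with DMSO (log2 0.46 ± 0.07, adjusted p = 6.8e-04). The share of variable exons there overlapped between treatments, and a link between ESRP1 and that share was not tested.

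Genes that work with the 10 were taken from 5 lists. Of 38 genes of integrin activation and linkage to the cytoskeleton, 11 rose and 8 fell with IT848 in MM.1S, and 1 rose and 10 fell in U266, with a median log2 fold change of -0.00 in MM.1S and -0.08 in U266. Over all genes tested, 18.7% rose and 19.6% fell in MM.1S and 4.03% rose and 4.98% fell in U266, and the counts of every list are to be read against these shares. PTK2B, the adhesion kinase PYK2, fell in both lines (MM.1S -0.79 ± 0.05, U266 -0.46 ± 0.05). SIPA1, which switches off the integrin activator RAP1, also fell in both (MM.1S -0.58 ± 0.07, U266 -0.44 ± 0.07), and RASSF5, which carries RAP1 signals to LFA-1, fell in both as well (MM.1S -0.48 ± 0.04, U266 -0.20 ± 0.04). FERMT2, kindlin-2, which binds beta subunit tails, rose in MM.1S by 1.05 ± 0.09, at 7.28 CPM with IT848 against 3.55 CPM with DMSO. Of the other kindlin genes, FERMT3 rose there (0.49 ± 0.10) and FERMT1 fell (-0.44 ± 0.14). VCL, vinculin, fell in U266 (-0.41 ± 0.06), and TES rose in MM.1S (0.32 ± 0.04) and in U266 (0.24 ± 0.04).

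Of 17 tested other integrin subunits, 1 rose and 6 fell in MM.1S and none rose and 1 fell in U266, with a median log2 fold change of -0.14 in MM.1S and 0.01 in U266. ITGA3, a laminin receptor subunit, fell in MM.1S (-0.35 ± 0.07) and in U266 (-0.43 ± 0.07). In MM.1S, ITGA8 fell by 0.51 ± 0.04 and ITGA2, a collagen receptor subunit, rose by 0.68 ± 0.13. Of 24 tested ligands and counter-receptors, 2 rose and 5 fell in MM.1S and 2 rose and 1 fell in U266 (median 0.02 in MM.1S and 0.14 in U266). Among them LGALS8, an integrin-binding galectin, rose in MM.1S (0.36 ± 0.04) and in U266 (0.18 ± 0.04), and the laminin chain LAMA5 fell in MM.1S (-0.57 ± 0.09). VCAM1, the ligand of ITGA4 integrins, was at 0.239 CPM or less in every library.

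Of 24 tested genes of glycosylation, sulfation, shedding and splicing, 5 rose and 9 fell in MM.1S and 2 rose and 4 fell in U266 (median -0.04 in MM.1S and -0.06 in U266). Several act on the sugars of SELPLG and CD44. ST3GAL1, which caps O-linked sugars with sialic acid, fell in MM.1S (-0.64 ± 0.05) and in U266 (-0.28 ± 0.05). GCNT1, which branches those sugars, fell in MM.1S (-0.50 ± 0.07), where the sialyltransferase gene ST3GAL4 rose (0.98 ± 0.10). ADAM17, a sheddase, rose in MM.1S (0.36 ± 0.06) and in U266 (0.23 ± 0.06). TPST2, which sulfates tyrosines, was at 170 ± 6.67 CPM in untreated MM.1S and 16.8 ± 0.606 CPM in untreated U266, and FUT7, a fucosyltransferase for selectin ligands, at 0.0415 CPM or less in every library.

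Of 33 other marrow adhesion genes tested, 6 rose and 7 fell in MM.1S and 1 rose and 3 fell in U266 (median -0.05 in MM.1S and -0.01 in U266). SDC1, the plasma cell proteoglycan CD138, fell in both lines (MM.1S -1.04 ± 0.04, U266 -0.54 ± 0.04). CXCR4, the receptor that guides cells to the marrow, fell in MM.1S (-1.23 ± 0.05), and NCAM1, a neural adhesion molecule also found on myeloma cells, rose there by 1.98 ± 0.09, at 23.4 ± 0.973 CPM with IT848 against 5.94 ± 0.634 CPM with DMSO. Each list gene said to rise or fall had an adjusted p below 0.05 over all 16782 genes, and no list was tested as a set. The difference of the responses was called above 0 for 5 activation and linkage genes, no other integrin subunit, no ligand, 3 glycosylation genes and 5 other adhesion genes, and below 0 for 2, 3, 3, 6 and 2 in the same order, beside 8.49% above 0 and 8.94% below over all genes. Untreated MM.1S was higher than untreated U266 for 21, 8, 7, 11 and 16 of them and lower for 11, 6, 8, 11 and 12, beside 40.6% higher and 42.1% lower over all genes. In the untreated lines the activation list split by member: FERMT1 (9.07 ± 0.32) and FERMT3, the blood cell kindlin (4.35 ± 0.13), were higher in MM.1S, and FERMT2 (-4.16 ± 0.08) and ACTN1 (-5.28 ± 0.08) were lower.

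**Figure D5:**
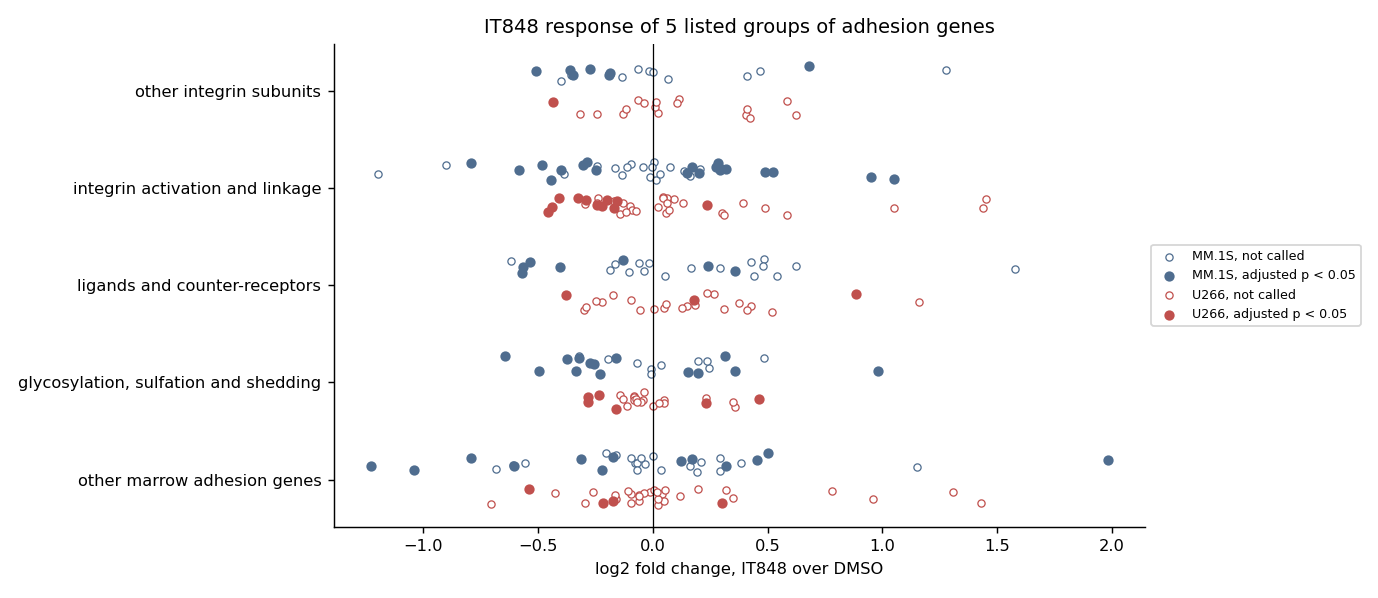
Log2 fold change of IT848 over DMSO (x axis) for the tested genes of the 5 lists, MM.1S above U266 in each list, with filled points at an adjusted p below 0.05. In the list of other marrow adhesion genes, NCAM1 is the filled point furthest above 0, at 1.98 in MM.1S.

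For each of the 10 genes the tested gene with the closest profile over the 12 libraries was found, as the smallest root mean square distance of centred log2 CPM. It was PRR29 for ITGA4 (distance 0.0708), TMEM63A for ITGAL (0.0949), ANAPC11 for ITGAE (0.0647), ATP6V0E2 for ITGB1 (0.0371), CCDC148 for ITGB2 (0.128), RAB29 for ICAM1 (0.0505), CHST11 for ICAM2 (0.0695), RAB1B for ICAM3 (0.0372), SEC63 for CD44 (0.0394) and SMG6 for SELPLG (0.0615). These distances describe the profiles over 4 groups and 2 lines, and PRR29 is the gene that overlaps ICAM2.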

How the data were processed

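The submitters' processing notes name bcl2fastq, Trimmomatic 0.36, STAR 2.5.2b, Subread 1.5.2 with featureCounts, and the hg19 build. How strand and reads with several alignments were counted, and with which annotation release, is not given in the sources used here. A count, an FPKM and a TPM stand beside every transcript in the deposited tables, per the file headers. The deposited count was the value tested. The deposited FPKM served only to recover transcript length, and the TPM deposited by the authors entered no result. The TPM given here was computed from the counts of the most counted transcript of each gene.

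Counts were summed per symbol and tested with edgeR 4.0.16 (R 4.3.3), by its quasi-likelihood F test with robust estimation, TMM scaling, and a mean per group over all 12 libraries. edgeR's expression filter (minimum count 10) kept 16782 genes, over which p-values were adjusted (Benjamini-Hochberg). The 20 alternatives included DESeq2 1.42.0. Named genes are the 10 members and genes picked from a larger set. That set held, from each list and comparison, up to 3 called rises and 3 called falls with at least 1 CPM in a group. Not all of that set are named above, such as PARVG (0.95) and PTK2 (0.52), which rose in MM.1S. FERMT3, VCAM1, FUT7, FERMT1 with IT848 and ITGB7 with IT848 fall outside that set and were chosen after their values were seen. TES in MM.1S and RASSF5 in U266 also fall outside it, and stand beside their values in the other line. The members and lists were chosen with earlier results of these data known. The model was tested on simulated data with log2 changes of 0.5 and 1 in size. In MM.1S it recovered 77% and 95% of them, with 10 of 182 calls false. In U266 it recovered 80% and 96%, with 14 of 190 calls false. Changes smaller than 0.5 were not simulated. Each simulation changed 100 of 16782 genes at each size, far fewer than were called in MM.1S. The simulated libraries of a group had no length trend between them. These rates therefore need not hold in the real libraries. No gene coordinates on hg19 are given, and promoter sequences come from RefSeq and exon v10 from GENCODE.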

Additional observations from a re-analysis of the deposited data

Results flagged for a closer look

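The response to IT848 differed between the lines for 5 of the 10 genes in the test of the difference itself (MM.1S minus U266, log2, edgeR quasi-likelihood test). The difference was 0.21 for ITGA4, which fell in both lines, -0.41 for ITGAL, which fell in MM.1S, 0.22 for ITGB1 and 0.26 for ICAM3, which both rose in MM.1S, and 0.28 for SELPLG, which fell in U266. Each was past an adjusted p of 0.05, and 17.4% of all genes were. Of 19 other settings, the call was kept in 19 for ICAM3, 17 for SELPLG, 13 for ITGB1, 11 for ITGA4 and 11 for ITGAL.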

How the results depend on the processing

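Over 20 alternative settings, 723 of 790 recomputed values of the 10 genes kept their direction and their side of the threshold, 26 lost a call, 14 gained one and 27 changed sign, none of these 27 with a call. Counts of called genes stayed within 1.5 times the reported count in MM.1S, in U266 and between the untreated lines. Leaving out 1 library at a time gave 4 to 6 genes in MM.1S, 3 in U266, 9 to 10 between the untreated lines and 1 to 6 for the difference of responses. That last count, 5 as reported, was 1 with U266 IT848 replicate 1 and MM.1S DMSO replicate 2 both left out, where 1712 genes were called in all against 2924. In that setting 924 genes were called in U266 against 1512, and 986 without U266 DMSO replicate 3.

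The values that changed sign were those of CD44, ITGB2, ITGAE, ICAM1 and SELPLG, none of them called. CD44 in MM.1S, reported as -0.00033, was 0.0049 with DESeq2 size factors, 0.0080 with DESeq2, 0.011 with no filter, 0.018 with only the MM.1S libraries, 0.021 with both those libraries left out, 0.079 with the length trend taken out and -0.030 to 0.047 without 1 library. The ITGB2 difference was -0.0061 with DESeq2 and -0.49 to 0.55 without 1 library. Without 1 library, ITGB2 ran over -0.42 to 0.62 in MM.1S and -0.027 to 0.20 in U266, ITGAE over -0.020 to 0.074 in U266, and in MM.1S ICAM1 over -0.011 to 0.093 and SELPLG over -0.077 to 0.027.

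The labels name no pairing by replicate number, and the main test used none. Deviations of libraries with the same number correlated at 0.50, -0.0098 and 0.49 in MM.1S and 0.20, 0.21 and -0.037 in U266. Those with different numbers correlated at -0.53 to 0.15 in MM.1S and -0.23 to 0.064 in U266. Whether the numbers mark pairs was not tested. With the replicate block, 6 genes were called in MM.1S (ITGAE added, 0.29, adjusted p = 0.0345), 4 in U266 (ITGAL added, -0.21, adjusted p = 0.0211), 9 between the untreated lines and 5 for the difference, where 4388 genes were called in all. The cause of these changes was not tested. ITGB2 had 3 to 34 reads per library, and its intervals were the widest of the 10 genes.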
